A study of Mus musculus with 36 samples.

Results

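The rows for miR-142a-3p, miR-142a-5p, miR-150-5p and miR-223-3p were read from small RNA sequencing of mouse prostate. They were chosen by name, as microRNAs (miRNAs) known from white blood cells, after earlier results of these data had been seen. They are 4 of the 1963 mature miRNA rows in the deposited tables. Male mice of the strain labelled C56NL/6N were compared in 12 groups of 3 libraries, at 10 and at 30 weeks of age, from the ventral and lateral prostate lobes. Without a tumour transgene the groups were WT; KO, in which both copies of ELAC2, the gene of the RNase Z enzyme that trims the 3′ ends of tRNA precursors, were deleted by a Cre recombinase under the probasin (Pb) promoter, which acts in prostate epithelium; and A537T, a homozygous ELAC2 knock-in carried in every tissue, named for its substituted residue. The same 3 lines were also crossed to carry 1 copy of TRAMP, a transgene in which the same promoter drives both T antigens of the SV40 virus, large and small, in prostate epithelium, and are called WT-TRAMP, KO-TRAMP and A537T-TRAMP. The KO deletion is thus directed at epithelium, whereas the knock-in allele was present in blood cells too. These libraries hold no messenger RNA, so the loss of ELAC2 could not be checked in them.

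A miRNA is a short RNA that, loaded into an Argonaute protein, pairs through its seed with messenger RNAs and lowers their output. One hairpin can give a mature miRNA from each arm, named 5p and 3p. miR-142 is made in nearly all cells of the blood lineage and is used as a pan-leukocyte mark. miR-150 is abundant in mature lymphocytes, and miR-223 in neutrophils and other myeloid cells, where it restrains granulocyte activation. Prostate epithelium is not known as a main source of any of these miRNAs, so in bulk tissue their reads are commonly read as a sign of infiltrating or circulating leukocytes. No cells were sorted here and no leukocyte protein or messenger RNA is in these tables. In such bulk tissue, fewer cells of a type and less RNA per cell cannot be told apart.

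The sequences show why both miR-142a arms are kept as separate members although they come from 1 hairpin. The mature sequences, with the seed (bases 2 to 8 from the 5′ end) in capitals, were as follows in RefSeq on GRCm38.p6, in which 3 of the 4 members matched.
mmu-miR-142a-3p: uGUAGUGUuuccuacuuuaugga
mmu-miR-142a-5p: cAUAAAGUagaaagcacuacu
mmu-miR-223-3p: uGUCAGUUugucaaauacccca
The Mir142 hairpin is shown next, with its 5p arm and then its 3p arm in capitals.
Mir142 hairpin: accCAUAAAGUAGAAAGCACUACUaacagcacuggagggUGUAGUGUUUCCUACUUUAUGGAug
The 3 seeds differ from each other, and none of them occurs at bases 2 to 8 of any other of the 1726 mouse mature miRNAs searched. Levels of the 5p and 3p arms of miR-142a are therefore 2 readings of 1 transcript, not independent evidence, whereas miR-150 and miR-223 come from other chromosomes.

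The Mir142 hairpin lies at chr11:87756864-87756927 on the plus strand of GRCm38, inside an intron of the long non-coding RNA gene Mir142hg at chr11:87755577-87757270. Mir142b is annotated on the opposite strand there, at chr11:87756841-87756955, but its mature product had only 17 reads in the 36 libraries together. The Mir150 hairpin lies at chr7:45121757-45121821 on the plus strand and overlaps no other annotated gene. The Mir223 hairpin at chrX:96242817-96242926, also on the plus strand, overlaps an exon of F630028O10Rik, at chrX:96239926-96243636.

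Levels are given as RPM, the reads of a miRNA per 1000000 miRNA reads of its library. Libraries held between 4544257 and 21870210 reads, except library 35, from A537T at 10 weeks, which held 655455 reads, so that 1 read was worth 1.53 RPM there. Columns carry library numbers 1 to 36, and each was put in a group by the tables that hold it, since a column shared by the KO and the knock-in table of 1 background and age is the control. The numbers run in blocks of 9, 1 block for each background and age, so library order and these factors cannot be told apart. The study's supplementary legends describe the replicates of a group as separate mice, which the labels only number.

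All 4 members were measured well above the floor of the filter, which kept 514 miRNAs with a mean of at least 1 RPM. miR-142a-5p was the most abundant, with a mean of 284 RPM and rank 108 of the 1963 rows, against means of 118 RPM for miR-142a-3p, 111 RPM for miR-150-5p and 23.8 RPM for miR-223-3p. miR-142a-3p varied most, from 16.4 to 497 RPM (33 to 5593 reads), which is a 30.3-fold range. miR-142a-5p spanned a 12.0-fold range, from 69.0 to 832 RPM. The myeloid miR-223-3p spanned 8.29-fold, from 8.16 to 67.7 RPM, and the lymphoid miR-150-5p only 3.84-fold, from 57.1 to 219 RPM. In library 35, the 33 reads of miR-142a-3p gave 50.3 RPM with a 95% Wilson interval of 35.9 to 70.7, and the 18 reads of miR-223-3p gave 27.5 RPM with an interval of 17.4 to 43.4, which cover counting error only.

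The order of the 12 group means placed the TRAMP groups of 30 weeks at the top for both arms of miR-142a. For miR-142a-3p the means ran from 35 RPM in WT at 30 weeks to 346 RPM in KO-TRAMP at 30 weeks, and 9 of the 11 pairs of neighbours in that order overlapped in range. For miR-142a-5p they ran from 101 RPM in WT at 10 weeks to 572 RPM in A537T-TRAMP at 30 weeks, and all 11 neighbouring pairs overlapped. For miR-150-5p, the lowest mean was 63.0 RPM in A537T-TRAMP at 10 weeks and the highest 150 RPM in KO at 30 weeks, again with overlap in all 11 pairs. miR-223-3p was lowest in KO-TRAMP and A537T-TRAMP at 10 weeks, both at 10.4 RPM, and highest in KO-TRAMP at 30 weeks, at 41.2 RPM, with overlap in 9 of 11 pairs.

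**Figure D1:**
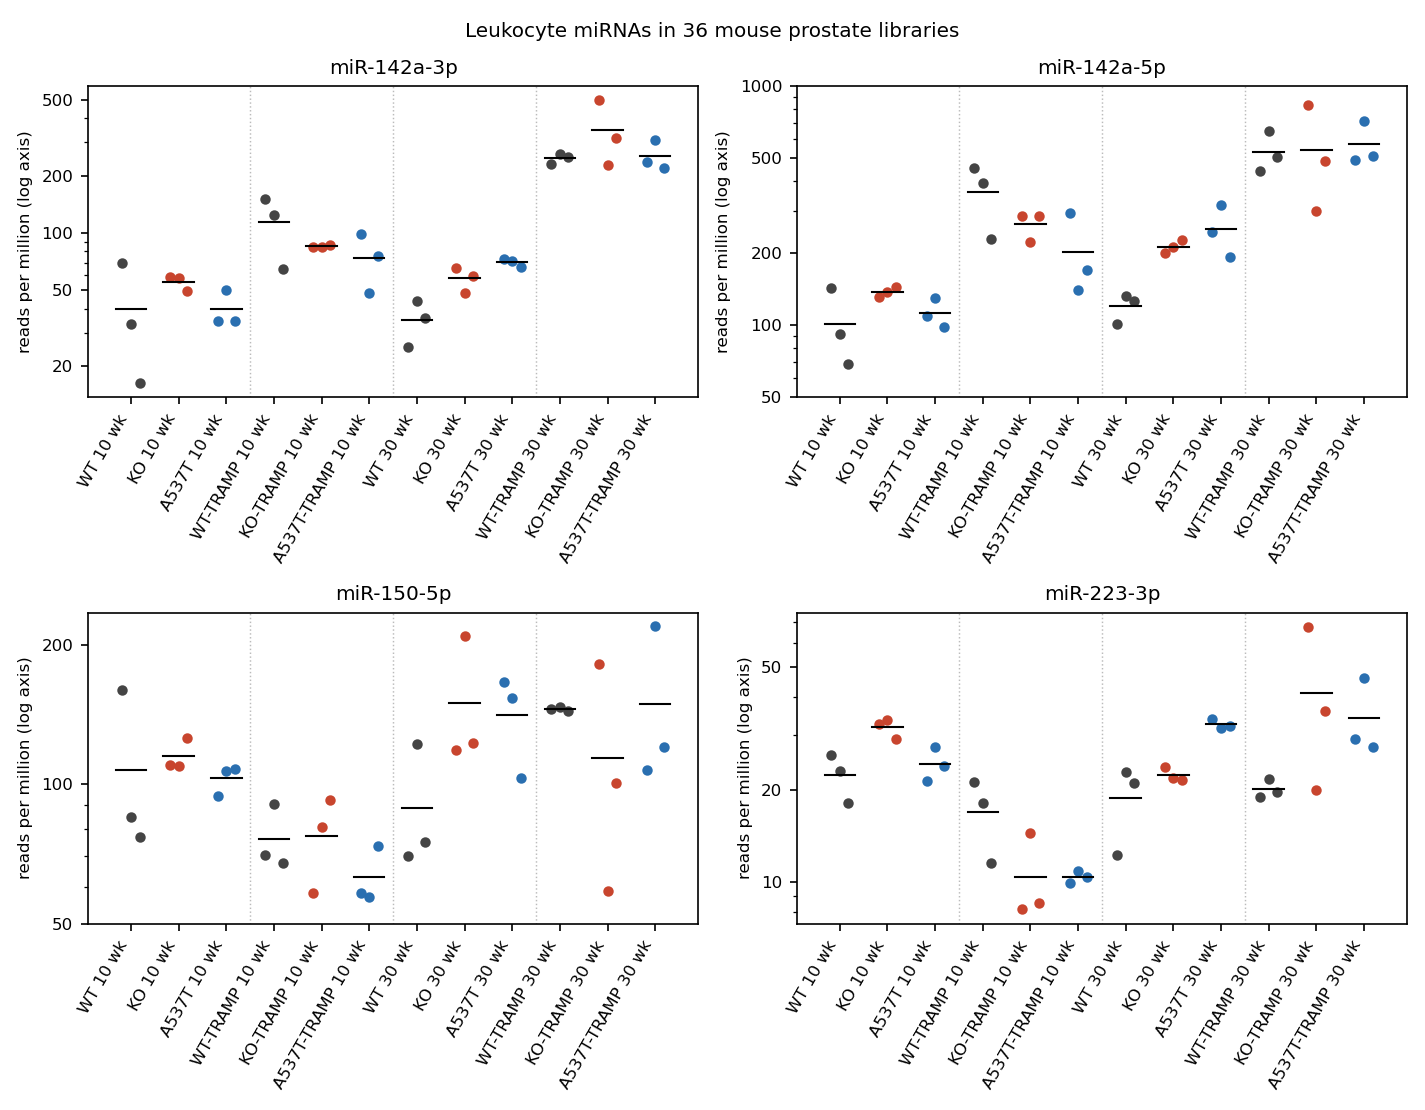
Level of each member in every library (RPM, log axis), by group, with WT in grey, KO in red and A537T in blue and the group mean as a black bar; dotted lines part the 4 combinations of background and age. Both miR-142a arms stand higher in the 30-week TRAMP groups, where miR-142a-3p lies between 219 and 497 RPM, while miR-223-3p is lowest in the 10-week KO-TRAMP and A537T-TRAMP groups.

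The first comparison asked how the leukocyte miRNAs differed between prostates with the TRAMP transgene and those of the same line and age without it. Both miR-142a arms were higher with TRAMP at 30 weeks, with ratios of group means of 3.61 to 7.03 for miR-142a-3p and 2.27 to 4.42 for miR-142a-5p, whereas miR-150-5p did not pass the test in any line on the RPM scale and miR-223-3p was lower at 10 weeks in the KO and A537T lines.

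In all, 11 of the 24 member tests of TRAMP passed, 9 of them for miR-142a and 2 for miR-223-3p. The share of all 514 miRNAs that passed in either direction was 34%, 42.8% and 35% at 10 weeks and 30.2%, 35.8% and 10.9% at 30 weeks for the WT, KO and A537T lines. Shares passing as higher were 19.8%, 14.4% and 12.6% at 10 weeks and 15.4%, 27.2% and 8.56% at 30 weeks, and shares passing as lower 14.2%, 28.4% and 22.4%, then 14.8%, 8.56% and 2.33%. Ranges failed to overlap for 42.2%, 60.3% and 49% of miRNAs at 10 weeks and for 46.5%, 41.6% and 30.9% at 30 weeks. Changes of this kind were therefore common in the tables. The median difference over the 514 was −0.05, −0.40 and −0.22 at 10 weeks and −0.11, 0.34 and −0.01 at 30 weeks. With TMM scaling the medians in the KO line moved to −0.20 and 0.13. miR-223-3p stayed lower and past the threshold in KO and A537T at 10 weeks with TMM scaling (−1.34 and −0.89).

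At 30 weeks miR-142a-3p measured 25.2, 43.8 and 35.98 RPM in WT against 228.5, 260.1 and 249.5 RPM in WT-TRAMP. In KO it measured 65.7, 48.3 and 59.3 RPM against 496.7, 227.6 and 315.2 RPM in KO-TRAMP. In A537T the values were 73.3, 71.3 and 66.2 RPM against 235.0, 306.4 and 219.5 RPM in A537T-TRAMP. All 9 TRAMP libraries lay above all 9 libraries without it. The ratios of group means were 7.03, 6.00 and 3.61 for the WT, KO and A537T lines. On the log2(RPM + 1) scale the differences were 2.81 ± 0.35 (SE; adjusted p = 7.4e-07), 2.50 ± 0.35 (adjusted p = 5e-06) and 1.82 ± 0.35 (adjusted p = 0.00051), from limma with Benjamini-Hochberg adjustment over all 514 miRNAs.

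miR-142a-5p moved the same way at 30 weeks, with smaller ratios. It measured 101.2, 132.3 and 126.4 RPM in WT and 440.2, 647.0 and 505.0 RPM in WT-TRAMP. In KO it measured 199.7, 212.4 and 226.2 RPM, against 831.7, 301.4 and 484.1 RPM in KO-TRAMP. In A537T it measured 244.0, 318.0 and 193.1 RPM, against 491.5, 717.0 and 508.9 RPM in A537T-TRAMP. Within each line the TRAMP libraries lay above those without it, although library 17 of KO-TRAMP (301.4 RPM) was below the highest A537T library. The ratios of means were 4.42, 2.53 and 2.27, and the log2 differences 2.13 ± 0.31, 1.22 ± 0.31 and 1.19 ± 0.31 (limma adjusted p = 7e-06, 0.0029 and 0.0089). The last of these was lost without library 14 (1.02, adjusted p = 0.072) or library 27 (1.02, adjusted p = 0.060).

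At 10 weeks the difference was clearest in the WT line. miR-142a-5p measured 143.4, 91.5 and 69.0 RPM in WT and 453.1, 394.3 and 229.4 RPM in WT-TRAMP, so the ranges did not overlap. The ratio of means was 3.54 and the log2 difference 1.82 ± 0.31 (limma adjusted p = 3.5e-05). miR-142a-3p measured 69.7, 33.3 and 16.4 RPM in WT and 151, 124.5 and 65.1 RPM in WT-TRAMP, where the lowest TRAMP library lay just below the highest WT library. Its ratio of means was 2.85 and its log2 difference 1.64 ± 0.35 (limma adjusted p = 0.0006).

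The other lines gave smaller differences at 10 weeks. In the KO line miR-142a-5p was 130.9, 137.1 and 144.2 RPM without and 285.0, 222.4 and 285.4 RPM with TRAMP, a ratio of 1.92 and a log2 difference of 0.93 ± 0.31 (limma adjusted p = 0.019) with no overlap. That call was lost without library 7 (0.87, adjusted p = 0.075), library 9 (0.87, adjusted p = 0.055) or library 31 (0.90, adjusted p = 0.055). miR-142a-3p in KO was 58.9, 57.8 and 49.6 RPM against 84.9, 84.0 and 86.0 RPM in KO-TRAMP, with no overlap but a log2 difference of 0.61 ± 0.35 that missed the threshold (limma adjusted p = 0.15). In A537T the arms differed by 0.85 ± 0.35 for 3p (limma adjusted p = 0.060) and 0.78 ± 0.31 for 5p (limma adjusted p = 0.051), and both passed without library 5, which was the lowest of A537T-TRAMP for both arms (1.12, adjusted p = 0.030, and 1.00, adjusted p = 0.028). With TMM scaling, which sets library sizes by a trimmed mean of ratios, every one of the 6 line-by-age differences passed for both arms. They were 0.85 for miR-142a-3p in KO and 1.10 in A537T at 10 weeks on that scale.

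The lymphoid miR-150-5p showed no such rise. At 10 weeks it was 109.8, 109.6 and 125.5 RPM in KO and 58.3, 80.9 and 92.4 RPM in KO-TRAMP, and 94.5, 106.8 and 107.7 RPM in A537T against 58.1, 57.1 and 73.7 RPM in A537T-TRAMP. Neither pair of ranges overlapped, with TRAMP lower in both. The log2 differences were −0.59 ± 0.33 and −0.71 ± 0.33 (limma adjusted p = 0.14 and 0.090), and that of WT was −0.42 ± 0.33 (adjusted p = 0.36). At 30 weeks miR-150-5p was 70.0, 122.1 and 75.0 RPM in WT and 145.2, 146.4 and 144.0 RPM in WT-TRAMP, without overlap and with TRAMP higher (0.74 ± 0.33, limma adjusted p = 0.081). Without library 20, the highest of WT, that difference was 0.99 (adjusted p = 0.046). In KO at 30 weeks the difference was −0.49 ± 0.33 (adjusted p = 0.25), with KO-TRAMP at 181.9, 58.8 and 100.5 RPM, and without library 16 it was −0.90 (adjusted p = 0.027). Across the 3 lines miR-150-5p thus took both signs, and none of its 6 tests passed on the RPM scale. With TMM scaling both the higher level in WT at 30 weeks (0.85) and the lower one in KO (−0.75) passed, as they did with DESeq2 size factors (0.78 and −0.79).

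The myeloid miR-223-3p fell with TRAMP at 10 weeks in 2 of the 3 lines. It was 32.7, 33.6 and 29.2 RPM in KO and 8.2, 14.5 and 8.6 RPM in KO-TRAMP, a ratio of means of 0.327. In A537T it was 21.3, 27.5 and 23.8 RPM, against 10.0, 10.9 and 10.4 RPM in A537T-TRAMP, a ratio of 0.431. Every TRAMP library lay below every library without it in both lines. The log2 differences were −1.57 ± 0.30 and −1.13 ± 0.30 (limma adjusted p = 0.00044 and 0.0051). In WT it was 25.99, 23.1 and 18.1 RPM against 21.1, 18.1 and 11.5 RPM in WT-TRAMP, which overlapped (−0.41 ± 0.30, limma adjusted p = 0.32). At 30 weeks none of the 3 lines passed, with differences of 0.14, 0.69 and 0.03. The KO line had 67.7, 19.9 and 35.9 RPM in KO-TRAMP against 23.7, 21.9 and 21.6 RPM in KO, and without library 17, the lowest, the difference was 1.11 (adjusted p = 0.0054). The other arm of the hairpin, miR-223-5p, had no lower mean with TRAMP at 10 weeks. Its means were 7.58 RPM in KO and 7.89 RPM in KO-TRAMP, and 6.82 RPM in A537T and 7.50 RPM in A537T-TRAMP. In WT and WT-TRAMP they were 6.47 and 10.4 RPM, so the 10-week fall was seen in the 3p arm alone.

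**Figure D2:**
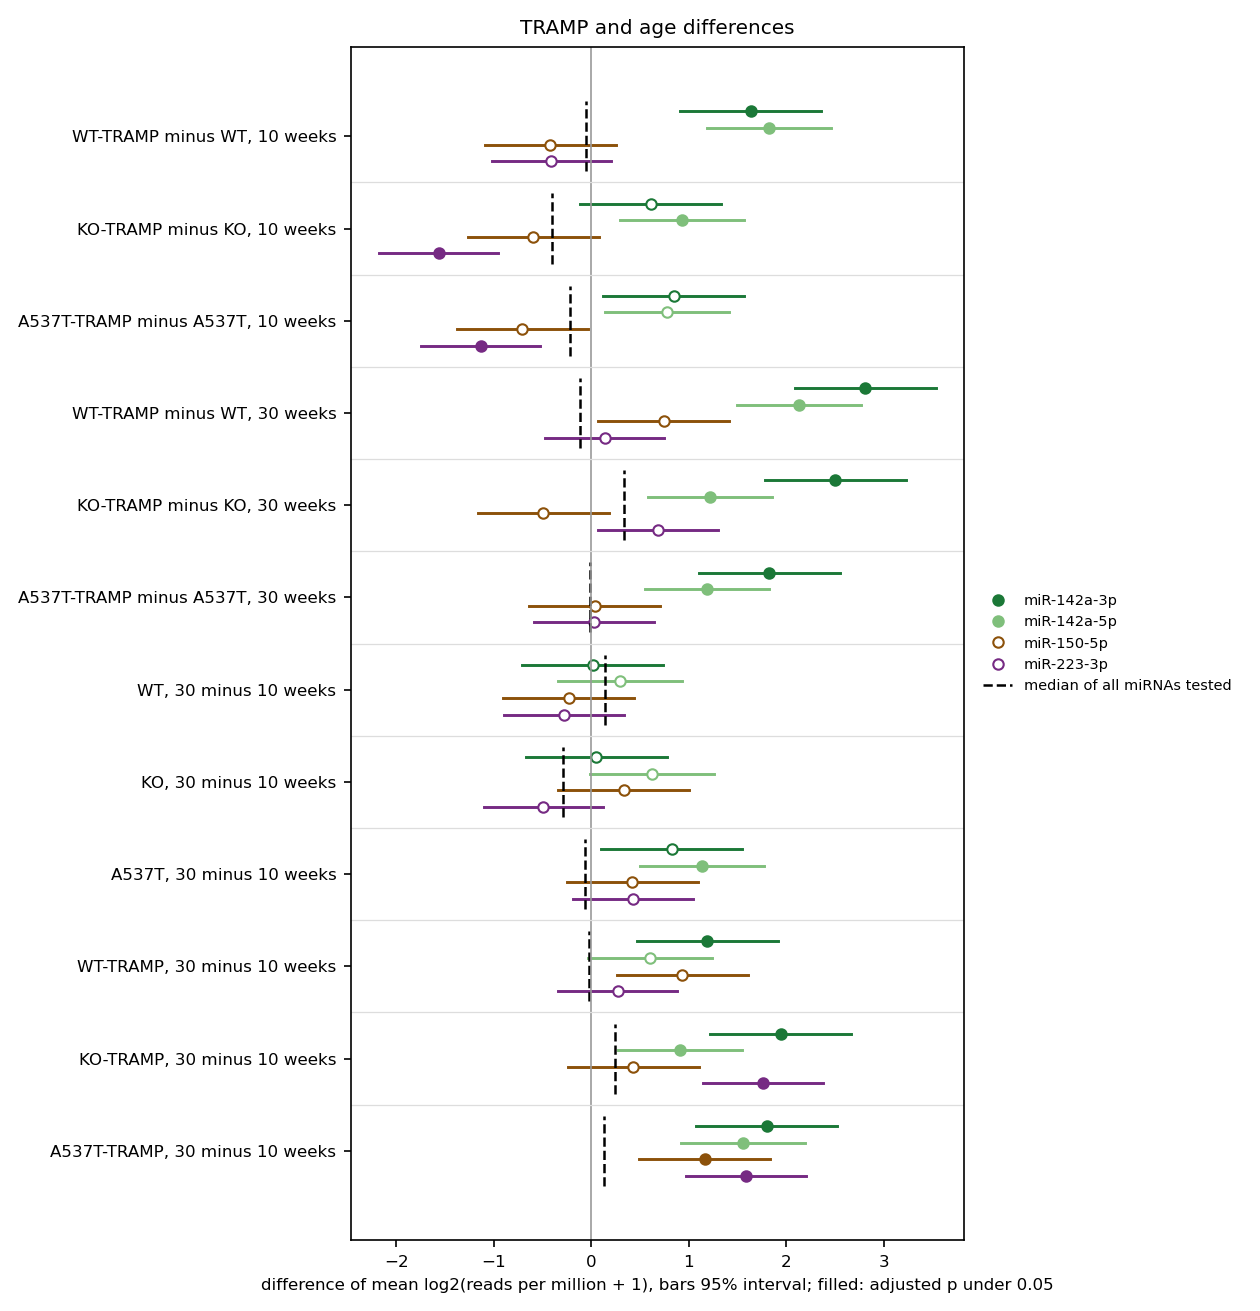
Difference of each member between TRAMP and no TRAMP, and between 30 and 10 weeks, as log2(RPM + 1) with its 95% interval; filled symbols passed at an adjusted p under 0.05 and the dashed tick is the median of all 514 miRNAs. The miR-142a-3p differences with TRAMP at 30 weeks, 2.81, 2.50 and 1.82, lie far right of those ticks, and miR-223-3p lies left of them at 10 weeks in the KO and A537T lines.

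Markers of other cells moved with TRAMP as well. Red cell miRNAs, 4 measured in every library, summed to between 0.106 and 0.193% of reads without TRAMP at 10 weeks and between 0.0138 and 0.0617% with it, and 3 of the 4 passed as lower in each line. At 30 weeks they summed to 0.0322 to 0.152% without and 0.0168 to 0.0615% with TRAMP. The pair of endothelial miRNAs made up 1.24 to 1.86% and 0.493 to 1.11% of reads at 10 weeks, and 0.585 to 1.35% and 0.810 to 0.997% at 30 weeks. The 6 epithelial miRNAs, also seen in every library, made up 3.81 to 6.67% without and 6.00 to 9.24% with TRAMP at 10 weeks. Skeletal muscle miRNAs took 0.734 to 30.6% of reads without TRAMP at 10 weeks, with 9.71 to 30.6% in WT, but 0.218 to 3.09% with it, and of the 6 in that list miR-208b-3p had no read in 21 libraries and miR-499-5p none in 1. The 5 miRNAs of stroma and smooth muscle ranged from 7.21 to 40.2% and from 7.59 to 22.8% at 10 weeks, and from 12.9 to 29.8% and 6.36 to 34.4% at 30 weeks. The part of these shifts in the member differences was not tested beyond scaling by a total without the muscle miRNAs, with which miR-142a-3p and miR-142a-5p still passed in the WT line at 10 weeks (1.33 and 1.51).

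Comparing 30 with 10 weeks within each line and background, 1 of 12 member tests passed without TRAMP and 8 of 12 with it. Both miR-142a arms, and in the mutant TRAMP lines miR-223-3p too, were higher at 30 weeks where they passed. The background for age was 9.53%, 14.8% and 15.2% of miRNAs passing in WT, KO and A537T, and 7.59%, 22.2% and 5.45% in the corresponding TRAMP groups. Ranges did not overlap for 27%, 52.9% and 34.8% of miRNAs without and 43%, 24.9% and 23.9% with TRAMP. Higher at 30 weeks were 17.9% in KO-TRAMP and 5.06% in A537T-TRAMP, where 3 and 4 of the 4 members were. Both counts include the 3p and 5p arms of miR-142a, which are not independent. The median of all 514 differences was 0.14, −0.29 and −0.06 without and −0.02, 0.24 and 0.13 with TRAMP. Groups of 1 line serve in both the TRAMP and the age comparisons, so these are not independent of each other.

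In A537T-TRAMP all 4 members rose with age. Set against the 10-week values above, miR-142a-3p went from 98.5, 48.7 and 75.4 to between 219 and 306 RPM there, a ratio of means of 3.42 (1.80, limma adjusted p = 0.0034). miR-142a-5p was 293.7, 140.0 and 170.3 RPM at 10 weeks, and its ratio was 2.84 (1.55, adjusted p = 0.0034). The ratio of miR-223-3p was 3.29 (1.59 ± 0.30, limma adjusted p = 0.0030), its 30-week values being 29.3, 46.0 and 27.5 RPM. That of miR-150-5p was 2.36 (1.16 ± 0.33, limma adjusted p = 0.044), with 30-week values of 107.1, 219.4 and 120.1 RPM, and it was lost without library 4 (1.11, adjusted p = 0.087), 5 (1.10, adjusted p = 0.14) or 14 (0.85, adjusted p = 0.26). This was the sole line in which the lymphoid miRNA passed.

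In KO-TRAMP 3 of the 4 members rose with age. miR-142a-3p rose by a ratio of means of 4.08 (1.94 ± 0.35, limma adjusted p = 0.00031) and miR-223-3p by 3.95 (1.76 ± 0.30, adjusted p = 0.00014), and in both every 30-week library was above every 10-week one. miR-142a-5p passed as well (0.91 ± 0.31, limma adjusted p = 0.035), but that call was lost without library 7 (0.97, adjusted p = 0.065), 8 (0.79, adjusted p = 0.10), 9 (0.97, adjusted p = 0.061), 16 (0.54, adjusted p = 0.21) or 18 (0.93, adjusted p = 0.10). miR-150-5p did not pass (0.43 ± 0.33, adjusted p = 0.40). These fits share 1 estimate of the spread over all 12 groups. With limma on only the libraries of this comparison, 0 of 513 miRNAs passed, so none of the 3 calls held. There 107 miRNAs had an unadjusted p below 0.05. Library 16 was the highest KO-TRAMP library for all 4 members, and had the lowest share of stromal miRNAs of that group, 6.36% against 34.4% and 24.7% in libraries 17 and 18. Whether that share bears on the members was not tested.

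In WT-TRAMP only miR-142a-3p passed with age, with a ratio of means of 2.17 (1.19 ± 0.35, limma adjusted p = 0.033), and this call was lost without library 2 (1.30, adjusted p = 0.055), 3 (0.84, adjusted p = 0.21), 10 (1.24, adjusted p = 0.090), 11 (1.15, adjusted p = 0.083) or 12 (1.18, adjusted p = 0.095). miR-150-5p was between 67.7 and 90.6 RPM at 10 and between 144 and 146 RPM at 30 weeks, without overlap but short of the threshold (0.93 ± 0.33, adjusted p = 0.076). miR-223-3p in WT-TRAMP differed by 0.27 ± 0.30. Without TRAMP the passing test was that of miR-142a-5p in A537T (ratio 2.25, 1.14 ± 0.31, limma adjusted p = 0.013), lost without library 26 (0.96, adjusted p = 0.079) or 36 (1.05, adjusted p = 0.059). In WT no member moved by more than 0.30 on the log2 scale between the ages.

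The mutant lines were next set against the WT line of the same background and age, which asks whether loss of ELAC2 from epithelium, or the A537T allele in all cells, went with other leukocyte miRNA levels. None of the 32 member tests passed in limma, while 11 had an unadjusted p below 0.05, the lowest adjusted p being 0.088. edgeR's quasi-likelihood test passed 2 of the 16 without and 1 of the 16 with TRAMP, and the DESeq2 Wald test 6 and 1. Both mutant lines share the WT libraries of their block. The share of all miRNAs passing was 0% in 4 of the 8 comparisons and low in the others, at 3.89% (KO) and 0.195% (A537T) at 10 weeks, 0.584% and 0% at 30 weeks, 0% and 0% at 10 weeks with TRAMP, and 6.23% and 0% at 30 weeks with TRAMP. In those 4 comparisons 26 to 43 miRNAs had an unadjusted p below 0.05, and edgeR passed 0 to 7 and DESeq2 0 to 23.

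The widest member differences without TRAMP, 1.02 and 1.04, were those of miR-142a in A537T at 30 weeks, where both miR-142a arms lay higher in both mutant lines without overlap with WT. miR-142a-5p was at 101.2 to 132.3 RPM in WT, 199.7 to 226.2 RPM in KO and 193.1 to 318.0 RPM in A537T. Its log2 differences were 0.83 (95% interval 0.19 to 1.46, limma adjusted p = 0.13) and 1.04 (0.41 to 1.68, adjusted p = 0.18). For miR-142a-3p they were 0.73 (0.01 to 1.45, limma adjusted p = 0.29) and 1.02 (0.29 to 1.74, adjusted p = 0.23). Ranges failed to overlap for 17.5% of all miRNAs in KO and 11.5% in A537T.

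The other members at 30 weeks without TRAMP separated the lines less evenly. miR-223-3p was 12.3, 22.9 and 21.03 RPM in WT, 23.7, 21.9 and 21.6 RPM in KO and 34.02, 31.8 and 32.3 RPM in A537T. Only A537T lay wholly above WT (0.82, interval 0.21 to 1.43, limma adjusted p = 0.29), and KO overlapped it (0.29, interval −0.32 to 0.90). miR-150-5p was 118.3, 208.7 and 122.6 RPM in KO and 166.2, 153.2 and 103.3 RPM in A537T, overlapping WT in both, with log2 differences of 0.74 and 0.67 (limma adjusted p = 0.21 and 0.53). With TMM scaling or DESeq2 size factors, 14 and 12 miRNAs passed between A537T and WT at 30 weeks in place of 0. Over the alternatives tried, miR-142a-5p passed in 3 of 10 in each line.

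At 10 weeks without TRAMP the sole member that did not overlap WT was miR-223-3p in KO, which was higher (0.50, interval −0.11 to 1.11), where 26.5% of all miRNAs did not overlap. The difference of miR-142a-3p between KO and WT was 0.69 (interval −0.03 to 1.42, limma adjusted p = 0.24), and without library 28, the highest of WT, it was 1.21 (adjusted p = 0.015). The skeletal muscle share was 9.71% in that library, against 19.01% and 30.6% in the other WT libraries. In A537T at 10 weeks no difference was over 0.21, with 6.81% of all miRNAs not overlapping.

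With TRAMP, the widest difference at 10 weeks was that of miR-142a-5p in A537T-TRAMP (−0.85, interval −1.48 to −0.21, limma adjusted p = 0.63), and at 30 weeks that of miR-223-3p. At 10 weeks miR-223-3p was 21.1, 18.1 and 11.5 RPM in WT-TRAMP, 8.2, 14.5 and 8.6 RPM in KO-TRAMP (−0.65, interval −1.27 to −0.04, limma adjusted p = 0.78) and 10.0, 10.9 and 10.4 RPM in A537T-TRAMP (−0.61, adjusted p = 0.63). At 30 weeks it was 18.9, 21.7 and 19.6 RPM in WT-TRAMP, with KO-TRAMP higher by 0.84 (interval 0.22 to 1.45, limma adjusted p = 0.088) and A537T-TRAMP by 0.71 (0.10 to 1.32, adjusted p = 0.62). The sign was thus lower in both lines at 10 weeks and higher in both at 30 weeks, and the A537T-TRAMP ranges did not overlap WT-TRAMP at either age. Of all miRNAs, 14.2% and 20% did not overlap in these A537T-TRAMP comparisons, and 9.73% and 25.5% in those of KO-TRAMP. For miR-142a-3p and miR-142a-5p at 30 weeks with TRAMP the mutant differences lay between −0.08 and 0.42. miR-150-5p differed by −0.50 in KO-TRAMP at 30 weeks, and by −0.91 (adjusted p = 0.049) without library 16.

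**Figure D3:**
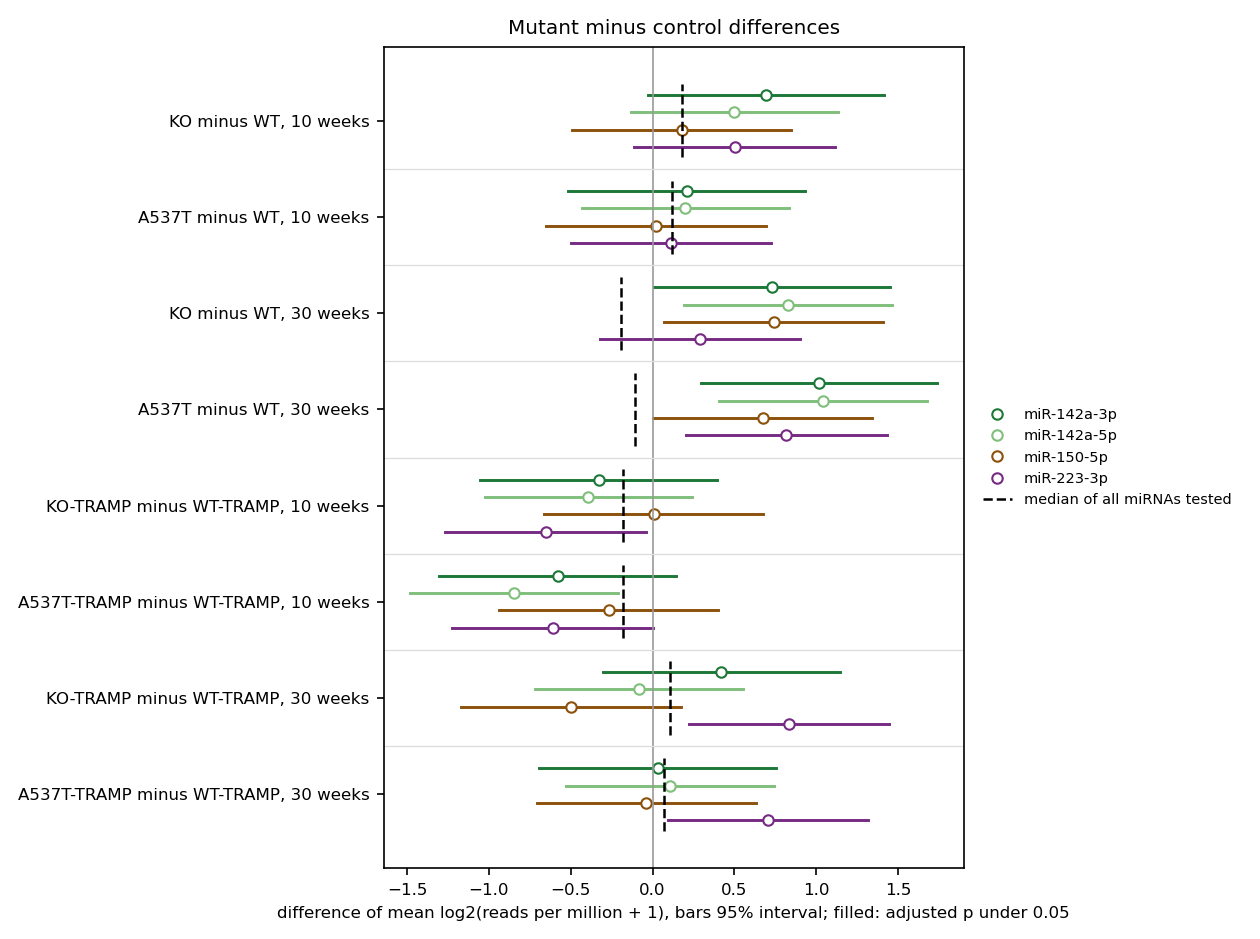
Difference of each member between a mutant line and the WT line of the same background and age, as log2(RPM + 1) with its 95% interval and the median of all 514 miRNAs as a dashed tick. No symbol is filled, since no member passed at an adjusted p under 0.05, and miR-223-3p lies left of 0 at 10 weeks and right of 0 at 30 weeks in both TRAMP lines.

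Differences between these effects were tested directly as interaction terms, and 2 of 28 passed. Both concern the TRAMP effect in the KO line, which was larger at 30 than at 10 weeks by 1.89 ± 0.50 for miR-142a-3p (limma adjusted p = 0.0082) and by 2.25 ± 0.42 for miR-223-3p (adjusted p = 0.00086). For miR-223-3p the effect went from −1.57 to 0.69, and for miR-142a-3p it went from 0.61 to 2.50. Each passed in all 12 fits without 1 of the libraries. In that test 31.9% of all miRNAs passed, 27.8% as higher, and the median difference was 0.62, which became 0.20 with TMM scaling and 0.04 with DESeq2 size factors. On those scales 97 and 87 miRNAs passed as higher and 58 and 73 as lower, against 143 and 21 on the RPM scale. Of the 4 red cell miRNAs 3 passed as higher in the same test, with a list median of 1.98, and their part in the member differences was not tested.

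miR-142a-5p and miR-150-5p did not pass in the KO line, at 0.29 ± 0.44 and 0.10 ± 0.46. In the A537T line the change of miR-223-3p was 1.16 ± 0.42 (limma adjusted p = 0.14) and in WT 0.55 ± 0.42, so that no line but KO passed, where 2.72% and 9.34% of miRNAs passed. In WT miR-142a-3p changed by 1.18 ± 0.50 (adjusted p = 0.13), and by 1.68 (adjusted p = 0.024) without library 30. The KO effect on miR-150-5p at 30 weeks was lower with than without TRAMP by a log2 difference of −1.24 ± 0.46 (limma adjusted p = 0.085), where 7.98% of miRNAs passed. Without library 16 it was −1.65 (adjusted p = 0.0075), and that of miR-142a-5p was −1.28 (adjusted p = 0.028) in place of −0.91. At 10 weeks the KO effect on miR-142a-3p differed by −1.02, and by −1.53 (adjusted p = 0.043) without library 28, where 0.389% of all miRNAs passed. For the A537T effect 0% of the 514 passed in limma at either age, with 41 at 10 and 22 at 30 weeks at an unadjusted p below 0.05 and 0 in edgeR and DESeq2.

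Ratios between members were taken within each library, so that the total used for scaling enters only through the pseudocount of 1 RPM. Each was tested by an exact two-sided permutation of libraries within lines or, for the mutant lines, within each background and age, and 11 of the 24 tests passed after Benjamini-Hochberg adjustment. Since miR-142a-3p itself was higher with TRAMP, by a mean log2 difference of 1.03 at 10 and 2.38 at 30 weeks, most miRNAs had a lower ratio to it there. Of the 513 others, 24.2% at 10 weeks and 66.7% at 30 weeks had a ratio to miR-142a-3p that was lower in all 9 TRAMP libraries than in all 9 without, and their median log2 difference was −1.32 and −2.31. The myeloid miR-223-3p was among them at both ages. Over the 9 libraries without TRAMP at 10 weeks, miR-223-3p over miR-142a-3p had a lowest value of 0.373, a median of 0.589 and a highest of 1.11, against 0.0961, 0.140 and 0.224 with TRAMP. At 30 weeks these were 0.360, 0.464 and 0.585 without, and 0.0786, 0.114 and 0.150 with TRAMP. The mean log2 differences were −2.07 and −2.10 (exact permutation p = 0.00025, the smallest it can give, adjusted p = 0.0012 for both). At 10 weeks 13.5% of the 513 had a lower difference than miR-223-3p, whereas at 30 weeks 63.4% did, so the 30-week value shows nothing particular to the myeloid miRNA.

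The lymphoid to pan-leukocyte ratio was also lower with TRAMP, near the median of all miRNAs. At 10 weeks miR-150-5p over miR-142a-3p was 1.86 at the lowest, 2.53 at the median and 4.70 at the highest without TRAMP, and 0.465, 0.963 and 1.17 with it. At 30 weeks the values were 1.56, 2.15 and 4.32 against 0.258, 0.547 and 0.716. In both cases the 9 TRAMP libraries lay below the 9 others, by −1.61 and −2.28 (exact permutation p = 0.00025 and adjusted p = 0.0012 for both). A lower difference was found for 36.6% of the 513 at 10 and 52.6% at 30 weeks, so neither value shows anything particular to the lymphoid miRNA. With age the ratio was lower by −0.80 in TRAMP prostates (exact permutation adjusted p = 0.015), and by −0.12 in those without (adjusted p = 0.62). Group means of miR-150-5p itself rose with age in the TRAMP lines, from 76.2 to 145 (WT), 77.2 to 114 (KO) and 63.0 to 149 RPM (A537T). Those of miR-142a-3p rose too, so an unchanged miRNA would also fall in ratio. How many other miRNAs did so with age was not computed, so nothing particular to the lymphoid miRNA is shown.

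The myeloid to lymphoid ratio, by comparison, did not separate the backgrounds. miR-223-3p over miR-150-5p had medians of 0.235 without and 0.172 with TRAMP at 10 weeks, and 0.200 and 0.229 at 30 weeks, with overlap at both ages. The 10-week difference of −0.46 passed (exact permutation p = 0.019, adjusted p = 0.046) but was −0.17 (adjusted p = 0.37) with a pseudocount of 10 RPM. Leaving out library 2, 3, 6, 7, 9, 29, 30, 31, 32, 33 or 35 also ended it, with differences between −0.50 and −0.38 and adjusted p between 0.053 and 0.11. At 30 weeks the KO-TRAMP libraries had ratios between 0.34 and 0.37, against 0.13 to 0.15 in WT-TRAMP and 0.21 to 0.27 in A537T-TRAMP, which is given as a description, since 3 against 3 cannot give a permutation p below 0.1. How many other pairs of miRNAs separate these lines in this way was not computed. As single levels, 25.5% of miRNAs in KO-TRAMP and 20% in A537T-TRAMP did not overlap WT-TRAMP at 30 weeks.

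The arms of miR-142a, though cut from 1 hairpin, did not keep a fixed ratio. At 30 weeks the 5p over 3p ratio was 2.92 at the lowest, 3.51 at the median and 4.46 at the highest without TRAMP, and 1.32, 2.02 and 2.49 with it. The ranges did not meet, and the mean log2 difference was −0.87 (exact permutation p = 0.00025, adjusted p = 0.0012), since miR-142a-5p was higher with TRAMP by 1.51 and miR-142a-3p by 2.38. A lower ratio to miR-142a-3p without overlap was the usual outcome then, found for 66.7% of the 513 miRNAs. A lower difference than that of miR-142a-5p was found for 95.3% of them. At 10 weeks they overlapped, at 2.06 to 4.22 without and 2.26 to 3.52 with TRAMP (0.14, adjusted p = 0.37). The lowest ratios were those of KO-TRAMP at 30 weeks, 1.32 to 1.67, below both WT-TRAMP (1.93 to 2.49) and A537T-TRAMP (2.09 to 2.34). This is a description of 3 libraries per group, and how many other ratios separate these lines was not computed. As single levels, 25.5% of miRNAs did not overlap between KO-TRAMP and WT-TRAMP at 30 weeks. The test of KO against control over all ages and backgrounds did not pass for this ratio (exact permutation adjusted p = 0.26).

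With age the arm ratio fell by 0.62 in TRAMP prostates (exact permutation p = 0.00075, adjusted p = 0.003) and rose by 0.39 in those without (p = 0.012, adjusted p = 0.035). The latter was lost without library 19, 21, 28, 29, 31, 32 or 35, with differences of 0.31 to 0.39 and adjusted p of 0.051 to 0.074. The myeloid to pan-leukocyte ratio was lower at 30 weeks, by a log2 difference of −0.41 without and −0.44 with TRAMP (exact permutation adjusted p = 0.035 and 0.049). The first was lost without library 19, 20, 21, 29, 30, 31, 32 or 33 (−0.43 to −0.29, adjusted p 0.051 to 0.097), and the second was kept only without library 4, 7, 9 or 16 and otherwise lay between −0.47 and −0.34 (adjusted p 0.051 to 0.12). The share of other miRNAs whose ratio to miR-142a-3p fell with age was not computed. With TRAMP the group means of miR-142a-3p rose with age, from 114 to 246 (WT), 85.0 to 346 (KO) and 74.2 to 254 RPM (A537T). An unchanged miRNA would thus fall in ratio there, while miR-142a-5p and miR-223-3p had higher means at 30 weeks in each TRAMP line. The falls with TRAMP therefore show nothing particular to either. None of the 8 tests of KO or A537T against the control line passed for any ratio, with mean differences from −0.27 to 0.16.

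**Figure D4:**
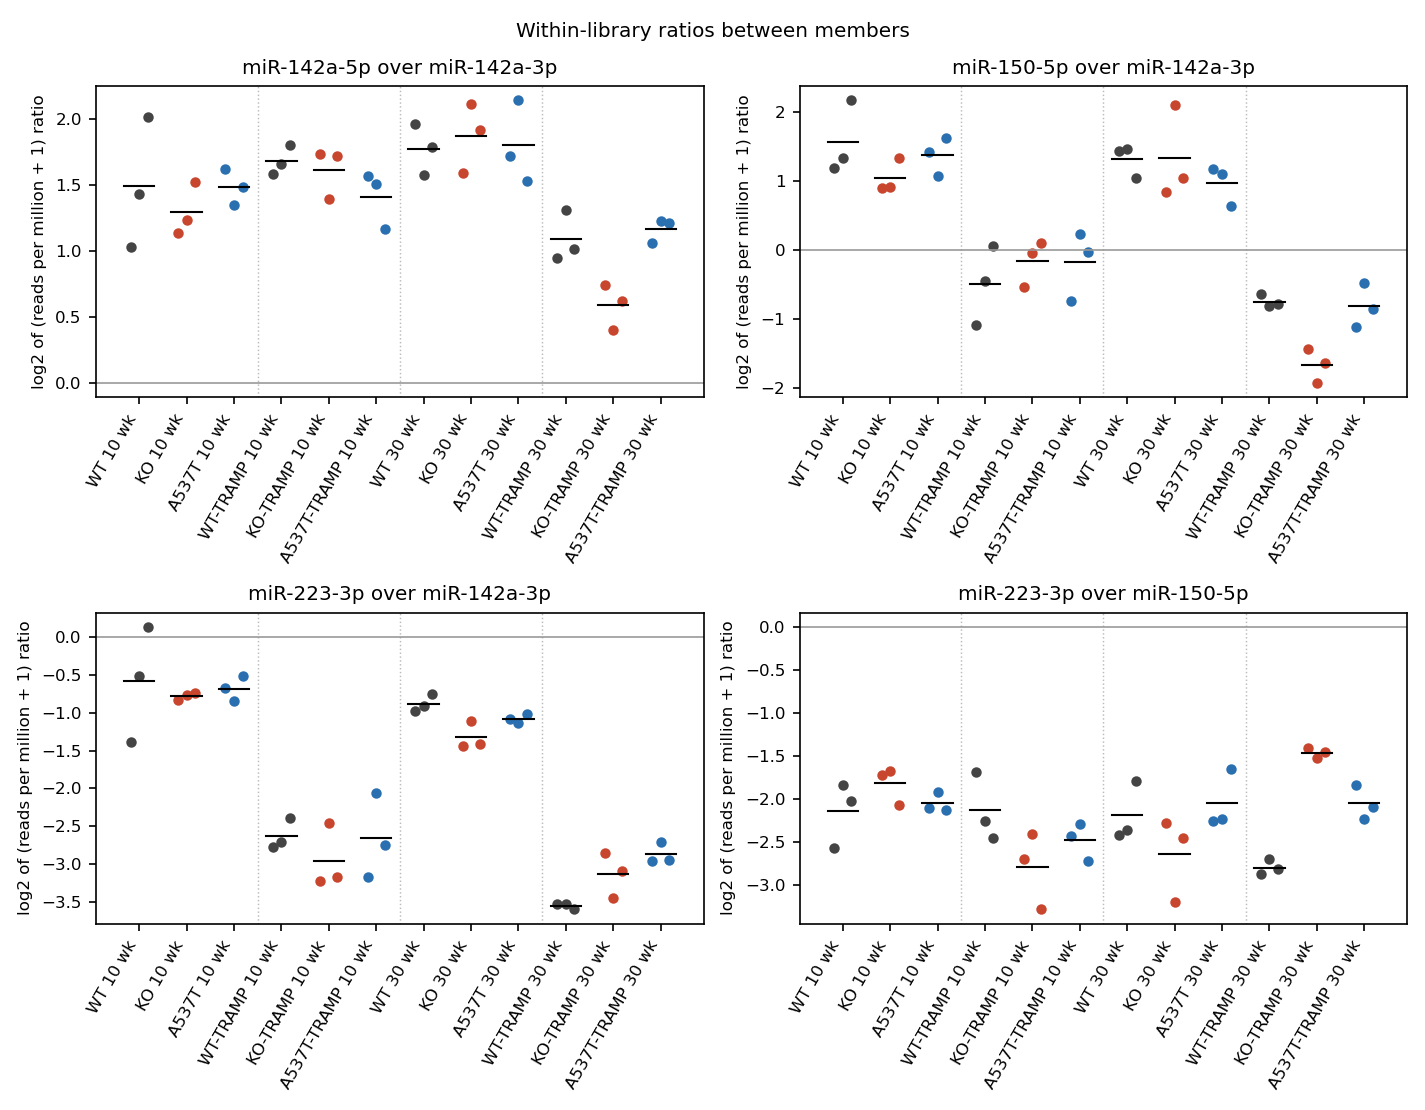
Log2 ratio between members in every library, by group, coloured by line as for the levels. In the panels of miR-150-5p and miR-223-3p over miR-142a-3p the TRAMP groups lie below those without TRAMP at both ages, as did 24.2% and 66.7% of all miRNAs over miR-142a-3p, and the 5p over 3p panel falls in the 30-week TRAMP groups.

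A list of 11 other miRNAs linked to leukocytes, of which 8 passed the filter, was read beside the members. With TRAMP at 30 weeks 5 of the 8 were higher in the WT line, 5 in the KO line and 1 in the A537T line, and none was lower. Of all 514 miRNAs 15.4%, 27.2% and 8.56% passed as higher there, so the A537T count was near that share. The medians of the 8 were 0.79, 0.95 and 0.44, against −0.11, 0.34 and −0.01 for all miRNAs. At 10 weeks 3, 0 and 1 passed as higher and 1, 2 and 1 as lower, with medians of 0.52, 0.04 and 0.15 against −0.05, −0.40 and −0.22. The shares of all miRNAs were 19.8%, 14.4% and 12.6% as higher and 14.2%, 28.4% and 22.4% as lower.

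Single members of that list behaved differently from each other. miR-147-3p, which is induced in activated macrophages, was higher with TRAMP at 30 weeks by 2.42, 2.74 and 2.34 in the WT, KO and A537T lines (limma adjusted p = 8.5e-05, 1.6e-05 and 0.00023). Its group means at 30 weeks were 1.73, 1.55 and 1.54 RPM without and 14.2, 17.2 and 12.7 RPM with TRAMP. At 10 weeks they were already higher with TRAMP, at 0.906, 0.901 and 0.992 RPM without and 4.13, 2.69 and 2.85 RPM with it. The levels without TRAMP were close to the pseudocount of 1 RPM, which understates such differences, so their size cannot be set beside that of miR-142a-3p. miR-155-5p, induced in activated lymphocytes and macrophages, was lower at 10 weeks in all 3 lines, with differences of −0.88, −0.67 and −1.06 (limma adjusted p = 0.012, 0.045 and 0.0037). At 30 weeks it was higher in WT and KO by 0.75 and 0.84 (adjusted p = 0.035 and 0.015). miR-223-5p, the other arm of the miR-223 hairpin, rose at 30 weeks by 1.10 in WT and 1.24 in KO (limma adjusted p = 0.0083 and 0.0024), where miR-223-3p differed by 0.14 and 0.69 without passing.

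miR-146a-5p, induced by NF-κB and abundant in several immune cells, was higher with TRAMP in the WT line by 1.35 at 10 and 1.41 at 30 weeks (limma adjusted p = 0.0089 and 0.0097). miR-342-5p rose in WT at both ages (1.30 and 0.83, adjusted p = 0.0016 and 0.044) and in A537T at 10 weeks (0.94, adjusted p = 0.021). miR-146b-5p passed in the KO line at 30 weeks alone (1.06, adjusted p = 0.00053), and miR-342-3p in none of the 6. miR-511-3p, whose gene lies within that of the macrophage mannose receptor, went from −0.99 at 10 weeks to 1.16 at 30 weeks in the KO line (limma adjusted p = 0.0035 and 0.00078), a change of 2.15 between the ages (adjusted p = 0.00044). Its level was low, between 0.938 and 6.84 RPM over all libraries. The change of miR-155-5p passed in all 3 lines (1.63, 1.51 and 1.55, limma adjusted p = 0.0067, 0.0064 and 0.026). In the KO line 5 of the 8 passed as higher in this test of change, the others being miR-147-3p (1.78), miR-223-5p (1.22) and miR-146b-5p (0.98), and the list's median was 1.32 against 0.62 for all miRNAs. Of all 514 miRNAs 27.8% passed as higher in it. Against WT, the list gave 1 passing test over the 8 mutant comparisons, a higher level in KO-TRAMP at 30 weeks, where 6.23% of all miRNAs passed. With age 5 of the 8 were higher in KO-TRAMP, 3 in A537T-TRAMP and 2 in WT-TRAMP, where 17.9%, 5.06% and 3.89% of all miRNAs were. The rows miR-150-3p, miR-511-5p and miR-147-5p had means of 0.886, 0.913 and 0.660 RPM and were not tested.

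**Figure D5:**
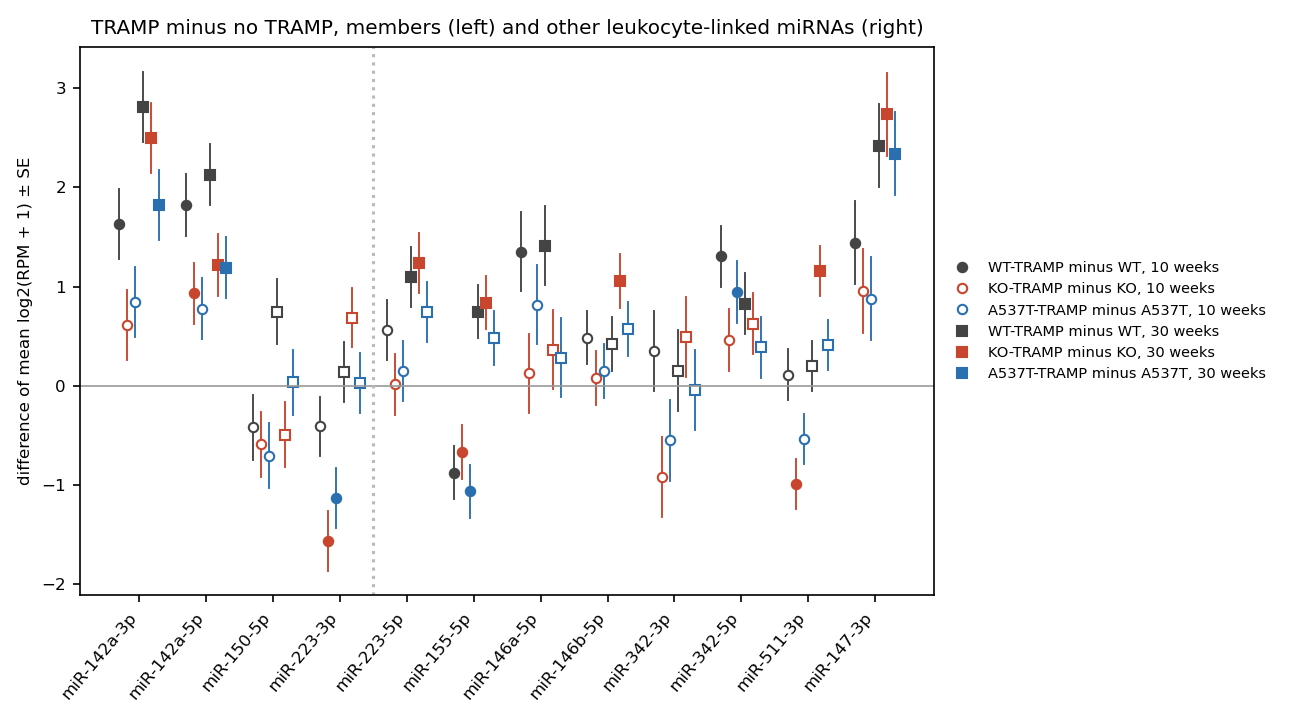
Difference with TRAMP as log2(RPM + 1) ± SE for the 4 members and the 8 other leukocyte-linked miRNAs tested, by line, with circles for 10 and squares for 30 weeks. miR-142a-3p and miR-147-3p have the highest 30-week values in each line, and miR-155-5p lies below 0 at 10 weeks and above it at 30 weeks.

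The miRNAs with the most similar pattern to each member were sought among 297 with a mean of at least 10 RPM, by Pearson's r of log2(RPM + 1) over the 36 libraries, which share their totals. For miR-142a-3p they were miR-142a-5p (r = 0.95), miR-106b-5p (0.90), miR-20a-5p (0.89), miR-93-5p (0.87) and miR-872-5p (0.87). For miR-142a-5p they were miR-142a-3p (0.95), miR-146a-5p (0.85), miR-93-5p (0.84), miR-374b-5p (0.82) and miR-15b-3p (0.82). miR-20a, miR-93 and miR-106b belong to the miR-17 family, which is known from dividing cells and is not particular to leukocytes.

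miR-223-3p went instead with miR-674-5p (r = 0.82), miR-199a-5p (0.74), miR-532-3p (0.74), miR-155-5p (0.73) and miR-214-3p (0.72). miR-150-5p was nearest to miR-223-3p (0.70), miR-674-5p (0.70), miR-214-3p (0.69), miR-199a-5p (0.67) and miR-155-5p (0.63). miR-199a and miR-214 are best known from stromal cells. After subtracting each group's mean, the nearest were miR-142a-5p (0.85) and miR-497a-5p (0.79) for miR-142a-3p, miR-21a-3p (0.76) after the other arm for miR-142a-5p, miR-339-5p (0.72) for miR-150-5p and miR-140-5p (0.82) for miR-223-3p. Between members, r with miR-142a-3p was 0.31 for miR-150-5p and 0.32 for miR-223-3p over all libraries. After subtracting each group's mean these became 0.58 and 0.68, that of miR-150-5p with miR-223-3p was 0.69, and that of the miR-142a arms was 0.85. Within groups miR-142a-3p thus went more closely with miR-150-5p and miR-223-3p than over all libraries.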

How the data were processed

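RNA of the ventral and lateral prostate was made into small RNA libraries (Illumina TruSeq). The authors merged reads, counted mature miRNAs with mirDeep2 against GRCm38 and miRBase, and divided the counts by DESeq2 size factors within tables of 6 libraries. The deposited values are these normalised counts, a signal and not whole reads. Dividing by each library's smallest step gave whole reads for 100% of 44158 values above 0 (tolerance 0.01 read), identical for the 12 control columns shared by tables, with 0 columns unmapped. The deposited comparison tables (fold changes and error rates) were not used.

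From the recovered reads, log2(RPM + 1) was fitted with limma 3.58.1 (trend; R 4.3.3) over 36 libraries and 12 group means with 24 residual degrees of freedom, in 27 contrasts of 514 miRNAs, with a threshold of 0.05 after Benjamini-Hochberg adjustment per contrast. The pseudocount understates changes of low miRNAs. Ratios used exact stratified permutations (8000 or 160000, scipy 1.17.1), adjusted over 24 tests. Alternatives were TMM (edgeR 4.0.16), DESeq2 1.42.0 size factors, both count tests, other filters, pseudocounts and totals, each table alone, and each library left out. Code was tested on simulated data. Members, lists and named miRNAs (every member, the other leukocyte-linked list, the 5 most alike) were chosen with earlier results of these data known.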

Additional observations from a re-analysis of the deposited data

Results flagged for a closer look

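The effect of TRAMP in the KO line differed between the ages by the test of that difference itself, for 2 members. For miR-142a-3p it was larger at 30 than at 10 weeks by 1.89 on the log2(RPM + 1) scale (limma adjusted p = 0.0082), with every KO-TRAMP library above every KO library at both ages. The other arm, miR-142a-5p, did not pass in this test, and its sign changed with other scalings. In the WT line miR-142a-3p changed the same way, by 1.18, without passing. For miR-223-3p the difference was 2.25 (limma adjusted p = 0.00086), with all 3 KO-TRAMP libraries below the KO libraries at 10 weeks and overlap at 30 weeks. The other arm, miR-223-5p, had means of 7.58 RPM in KO and 7.89 RPM in KO-TRAMP at 10 weeks, and of 7.25 and 19.8 RPM at 30 weeks. Over the alternatives with other scaling, filters and tests, and without single libraries, the value of miR-142a-3p stayed between 1.21 and 2.16 and that of miR-223-3p between 1.59 and 2.67. In the same test 31.9% of all miRNAs passed, as did 5 of the 8 other leukocyte-linked miRNAs. Groups of 3 libraries were not checked for outlying samples.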

How the results depend on the processing

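Of the member tests, the 11 for TRAMP became 10 to 16 and the 9 for age 6 to 12 under other scalings, filters and count tests, and 10 to 14 and 7 to 10 without single libraries. The 0 mutant tests without TRAMP became 3 with TMM, 5 with DESeq2 size factors, 2 in edgeR, 6 in the DESeq2 Wald test and 0 to 1 without single libraries (1 without library 28). With TRAMP the 0 became 1 in edgeR, 1 in the Wald test and 0 to 1 without single libraries (1 without library 16). The 2 differences of effects became 6 with TMM, 5 with size factors, 4 with a total without muscle miRNAs, 1 with a mean of at least 100 RPM (fewer miRNAs tested), 5 in edgeR, 6 in the Wald test and 2 to 4 without single libraries (4 without library 16). The 11 ratio tests became 10 with a pseudocount of 10 RPM and 7 to 11 without single libraries (7 without library 19, 21, 29, 31 or 32). The cause of these changes was not tested.

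Some small differences that had not passed changed sign on other scales, listed in the order TMM, DESeq2 size factors, edgeR and Wald test. miR-150-5p gave −0.0093, −0.058, −0.048 and −0.062 for KO minus WT at 10 weeks, −0.14, −0.15, −0.20 and −0.15 for A537T minus WT at 10 weeks, −0.090, −0.088, −0.018 and −0.077 for TRAMP in A537T at 30 weeks, 0.18, 0.27, 0.25 and 0.27 for TRAMP on the KO effect and 0.083, 0.035, 0.075 and 0.014 on the A537T effect at 10 weeks, and −0.40, −0.59, −0.31 and −0.50 for the change with age of TRAMP in KO. miR-223-3p gave −0.039, −0.048, −0.073 and −0.066 for A537T minus WT at 10 weeks and −0.094, −0.092, −0.034 and −0.093 for TRAMP in A537T at 30 weeks. miR-142a-3p gave −0.028, −0.057, −0.073 and −0.062 for A537T-TRAMP minus WT-TRAMP at 30 weeks, −0.12, −0.032, −0.33 and −0.14 for age in WT, and −0.14 (edgeR) and −0.069 (Wald test) for A537T minus WT at 10 weeks. miR-142a-5p gave −0.21, −0.40, −0.11 and −0.31 for the change with age of TRAMP in KO, −0.054 (Wald test) for that in A537T, −0.0097 (edgeR) for A537T minus WT at 10 weeks, and −0.010 (edgeR) and −0.0031 (Wald test) for A537T-TRAMP minus WT-TRAMP at 30 weeks. The total without muscle miRNAs gave miR-150-5p −0.11 and −0.17 and miR-223-3p −0.074 in these 10-week KO and A537T comparisons, 0.12 for miR-150-5p in TRAMP on the KO effect, and −0.29 and −0.019 for the 3p and 5p arms of miR-142a with age in WT, where a pseudocount of 10 RPM gave −0.020 for 3p. Single deposited tables gave −0.019 (KO) and −0.13 (A537T) for miR-150-5p and −0.035 for miR-223-3p at 10 weeks, and −0.075 for miR-142a-3p in A537T-TRAMP.

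Leaving out single libraries moved these differences across 0, none of which passed in the full set. For miR-150-5p the ranges were −0.019 to 0.50 (KO) and −0.18 to 0.34 (A537T) at 10 weeks, −0.14 to 0.19 for KO-TRAMP at 10 weeks, −0.35 to 0.16 for A537T-TRAMP at 30 weeks, −0.28 to 0.23 for TRAMP in A537T at 30 weeks, −0.48 to 0.093 for age in WT, −0.50 to 0.025 for TRAMP on the KO effect at 10 weeks and −0.31 to 0.49 for the change with age of TRAMP in KO. For miR-142a-3p they were −0.29 to 0.72 (A537T, 10 weeks), −0.11 to 0.13 (A537T-TRAMP, 30 weeks), −0.49 to 0.53 (age in WT) and −0.046 to 0.17 (age in KO). For miR-142a-5p they were −0.040 to 0.48 (A537T, 10 weeks), −0.45 to 0.28 (KO-TRAMP, 30 weeks), −0.067 to 0.26 (A537T-TRAMP, 30 weeks) and −0.087 to 0.64 (change with age of TRAMP in KO). For miR-223-3p they were −0.025 to 0.22 (A537T, 10 weeks), −0.13 to 0.30 (TRAMP in WT, 30 weeks), −0.20 to 0.16 (TRAMP in A537T, 30 weeks) and −0.34 to 0.15 (TRAMP on the A537T effect, 30 weeks). For A537T minus control the ratios to miR-142a-3p ranged from −0.10 to 0.022 for miR-142a-5p, −0.15 to 0.0037 for miR-150-5p and −0.013 to 0.18 for miR-223-3p.

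No paired analysis was possible because the table columns carry none of the replicate numbers that the labels give, and no source ties a number to the same animal or litter across groups. Library 35 had the fewest reads. Other scalings moved the split of higher and lower calls over all miRNAs by more than 10 percentage points in several comparisons, for example from 74 higher and 146 lower to 105 and 106 with TMM for TRAMP in KO at 10 weeks, and from 140 and 44 to 112 and 78 at 30 weeks.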
